A study of Rattus norvegicus with 2 samples.

Results

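Among cells released from rat meniscus, 126 carried at least 10 UMIs (unique molecular identifiers, which count single captured mRNA molecules) of Col2a1, the gene of type II collagen. They were chosen among 14858 barcodes that held 500 genes or more and no more than 20% of UMIs in mitochondrial genes. All 126 came from the library of young tissue, where they made up 1.44% of 8773 kept cells (exact 95% Clopper-Pearson interval 1.20 to 1.71%). The library of aged tissue held 0 among 6085 kept cells, which allows a share of up to 0.0493%. Col2a1 chose these cells, so its level in them is a description, and Dcn and Chad chose the cells they are compared with.

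The study profiled rat meniscus with droplet 3' single-cell RNA sequencing in 2 libraries, 1 labelled aged and 1 labelled young. The tissue was digested with protease and collagenase P, and viable cells were sorted. The labels name neither strain, sex nor age in months, nor the part of the meniscus or the number of animals behind each library. With 1 library per age there is no replicate, so no test was made between ages or between groups of cells, and cells are not replicates. Intervals cover counting error only.

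The meniscus is a fibrocartilage that contains type I collagen fibres throughout and type II collagen mainly towards its inner rim. In hyaline-type cartilage, type II collagen forms fibrils with type XI collagen in the core and type IX collagen on the surface. Aggrecan fills the space between the fibrils, held on hyaluronan by the link protein that Hapln1 encodes, and the transcription factor SOX9 with SOX5 and SOX6 drives these genes.

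Promoter sequences were available for 4 of the 7 marker genes and are shown because these genes were detected together in most of the cells. They are RefSeq sequences on build GRCr8, each 250 bases before to 50 bases after the annotated start, 5′ to 3′ on the gene's strand. Capitals mark ACAAAG or ACAATG, a core recognised by SOX factors, TATAAA, and the GC box GGGCGG, each searched on both strands. Col9a1 lies at chr9:34081114-34081413 (plus strand), Col9a2 at chr5:139892548-139892847 (plus), Hapln1 at chr2:22366717-22367016 (plus) and Mia at chr1:91602970-91603269 (minus).
Col9a1: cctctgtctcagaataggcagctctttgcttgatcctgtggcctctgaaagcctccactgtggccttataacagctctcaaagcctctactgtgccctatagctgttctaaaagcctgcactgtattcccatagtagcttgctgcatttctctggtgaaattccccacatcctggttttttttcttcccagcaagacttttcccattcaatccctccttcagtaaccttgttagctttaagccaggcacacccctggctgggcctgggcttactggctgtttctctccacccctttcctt
Col9a2: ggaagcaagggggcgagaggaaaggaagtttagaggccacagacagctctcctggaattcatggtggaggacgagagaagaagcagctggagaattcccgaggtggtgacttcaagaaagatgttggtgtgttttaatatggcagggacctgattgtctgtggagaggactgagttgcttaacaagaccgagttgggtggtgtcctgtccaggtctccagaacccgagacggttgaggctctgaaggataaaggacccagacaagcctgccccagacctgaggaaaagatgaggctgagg
Hapln1: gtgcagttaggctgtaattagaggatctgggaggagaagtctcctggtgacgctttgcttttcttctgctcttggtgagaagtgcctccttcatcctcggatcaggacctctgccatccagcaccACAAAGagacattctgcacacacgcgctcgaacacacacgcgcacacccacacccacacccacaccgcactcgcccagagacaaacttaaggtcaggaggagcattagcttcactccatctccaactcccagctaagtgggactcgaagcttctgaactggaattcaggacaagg
Mia: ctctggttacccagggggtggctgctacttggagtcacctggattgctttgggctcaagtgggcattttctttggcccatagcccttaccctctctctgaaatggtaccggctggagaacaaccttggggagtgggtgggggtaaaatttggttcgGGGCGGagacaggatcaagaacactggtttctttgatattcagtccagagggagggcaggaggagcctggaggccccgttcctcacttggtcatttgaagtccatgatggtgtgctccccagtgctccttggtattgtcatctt
The Hapln1 promoter held 1 ACAAAG, whose first base lay 125 bases before the start, and the Mia promoter held 1 GGGCGG, 94 bases before it. The Col9a1 and Col9a2 windows held none of the motifs. Of 33469 rat promoters of this length, 29.1% held the SOX core, 14.2% TATAAA and 33.1% the GC box. These are matches of letters in a short window and describe no binding.

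The marker levels below describe the cells. They are no independent check of the label, since the gene lists were chosen with earlier results of these data known. The 7 markers were Col2a1, Col9a1, Col9a2, Col9a3, Snorc, Hapln1 and Mia, and the description leaves out Col2a1, which chose the cells. Of the 126 cells, 81 held at least 1 UMI of every one of the 6 others and 120 held at least 4 of them. The 6 genes together made up 1.49% of their UMIs, with a lowest cell of 0.0395%, a median of 1.44% and a highest of 3.10%. Stromal cells with 0 UMIs of Ptprc, a gene of all leukocytes, served for comparison in a pair of groups. Chad-rich cells had at least 10 UMIs of Chad, a cartilage leucine-rich repeat protein, and fewer than 10 of Col2a1. Dcn-rich cells had at least 10 of decorin and fewer than 10 of both Chad and Col2a1. Of the 126 hyaline cells, 104 also had at least 10 UMIs of Chad, and 13 at least 10 of Dcn. Chad thus did not separate most hyaline cells from Chad-rich cells. The young library held 17 Chad-rich and 71 Dcn-rich cells, 88 other stromal cells in all, and the aged library 33 and 469. The same 6 markers made up 0.325% of UMIs in young Chad-rich cells and 0.293% in aged Chad-rich cells, but 0.00138% and 0.00165% in young and aged Dcn-rich cells. At least 4 of the 6 were found in 5 of 17 young and 2 of 33 aged Chad-rich cells.

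Depth differed between the groups. The hyaline cells held 2408 to 43012 UMIs each, with a median of 15029, and a median of 2932.5 genes. Median depth was 12283 UMIs in young Chad-rich, 17974 in young Dcn-rich, 6800 in aged Chad-rich and 5964 in aged Dcn-rich cells, against 3846 over all kept young cells. Levels are given as CPM, summed UMIs of a gene per 1000000 UMIs of the group. Since 3' counts do not show how much RNA a cell held, CPM compares one gene between groups and not different genes. The 2 libraries shared 18 barcode sequences, 10 of them kept in both, and none of the hyaline barcodes was among these.

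Col2a1 split the young library into separate ranges. Of the kept young cells, 8347 had no Col2a1 UMI, 282 had 1, 11 had 2 or 3, 0 had 4 or 5 and 7 had 6 to 9. Above the threshold, 6 had 10 to 19, 14 had 20 to 49, 33 had 50 to 99, 45 had 100 to 199, 27 had 200 to 499 and 1 had 815. Just inside stood cells with 10, 10 and 13 Col2a1 UMIs, and just outside cells with 6, 6, 6, 7, 8, 9 and 9. Of those 7 cells, 6 carried Chad, up to 308 UMIs, and all 7 carried Snorc. In the aged library 7 cells had 1 Col2a1 UMI, 2 had 2 or 3 and none had more. Free RNA can give single UMIs in cells that lack a gene. Of 4195 young B-lineage cells, which should not express it, 3.96% held a Col2a1 UMI and 4.17% a Snorc UMI at a median depth of 4164 UMIs. In 1409 aged B-lineage cells, with a median of 4503 UMIs, the shares were 0% for Col2a1, which allows up to 0.213%, and 0.781% for Snorc. The barcodes that failed the filters added 1 Col2a1-rich barcode of 1141 in the young and 0 of 2337 in the aged library.

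**Figure D1:**
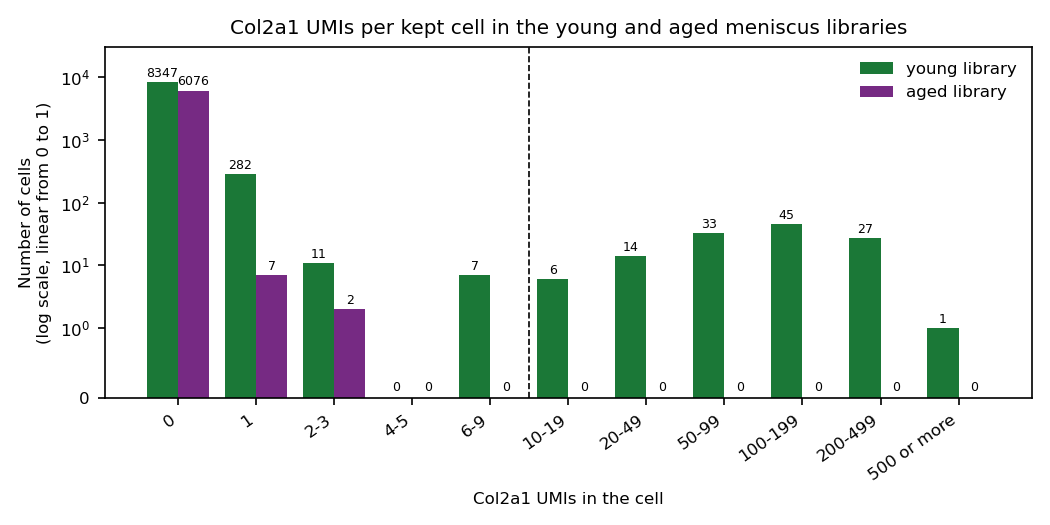
Number of kept cells by Col2a1 UMIs in the cell, in the young and the aged library. The y axis is logarithmic above 1, and the dashed line is the threshold of 10 UMIs. All 126 cells above it are from the young library, and the aged library has none above 3 UMIs.

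Among stromal cells of the young library, the hyaline cells were 126 of 214, or 58.9%, and in the aged library 0 of 502, which allows up to 0.598%. Age, animal and the part of the tissue that entered each library cannot be told apart here. Depth moved with the difference too: aged Chad-rich cells had a median of 6800 UMIs, and the part of depth in the count of cells was not tested. A threshold relative to depth, at least 0.1% of UMIs and at least 3 UMIs of Col2a1, gave 129 young and 0 aged cells.

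Each of the 6 markers that did not choose the cells was higher in them than in both other stromal groups of the young library. Col9a1, a chain of type IX collagen, stood at 890 CPM in hyaline cells, with a lowest, median and highest cell of 0, 704 and 3723 CPM, against 73.1 CPM in young Chad-rich and 1.53 CPM in young Dcn-rich cells. Col9a2, another chain of it, stood at 1613 CPM (cells 0, 1349 and 5228) against 59.4 and 1.53 CPM. The third chain, Col9a3, stood at 215 CPM (cells 0, 127 and 1418) against 13.7 CPM, with 0 UMIs in Dcn-rich cells. The 3 chains were found in 95.2%, 88.9% and 75.4% of the hyaline cells, so some cells at 0 overlapped with the other groups. Snorc, a transmembrane proteoglycan of cartilage, stood at 8751 CPM (cells 0, 8697 and 19098) against 1841 CPM in Chad-rich and 3.07 CPM in Dcn-rich cells. Hapln1 was found in every hyaline cell, at 2106 CPM (cells 316, 1726 and 6315), and stood at 1119 CPM in Chad-rich cells, the smallest gap of the markers. Mia, a small secreted protein of chondrocytes, stood at 1320 CPM (cells 0, 1145 and 3705) against 142 CPM in Chad-rich cells and 0 UMIs in Dcn-rich cells. Against the 88 other young stromal cells the log2 ratios of CPM were 6.23 for Col9a1 (95% counting interval 5.57 to 6.99), 7.36 for Col9a2 (6.63 to 8.20), 6.77 for Col9a3 (5.21 to 9.05), 5.03 for Snorc (4.89 to 5.18), 3.65 for Hapln1 (3.47 to 3.84) and 6.02 for Mia (5.51 to 6.58). Against Chad-rich cells alone they ran from 0.91 for Hapln1 to 4.76 for Col9a2. Col2a1 itself, fixed by the rule, stood at 9155 CPM (cells 1092, 7909 and 37262) against 187 and 3.83 CPM.

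**Figure D2:**
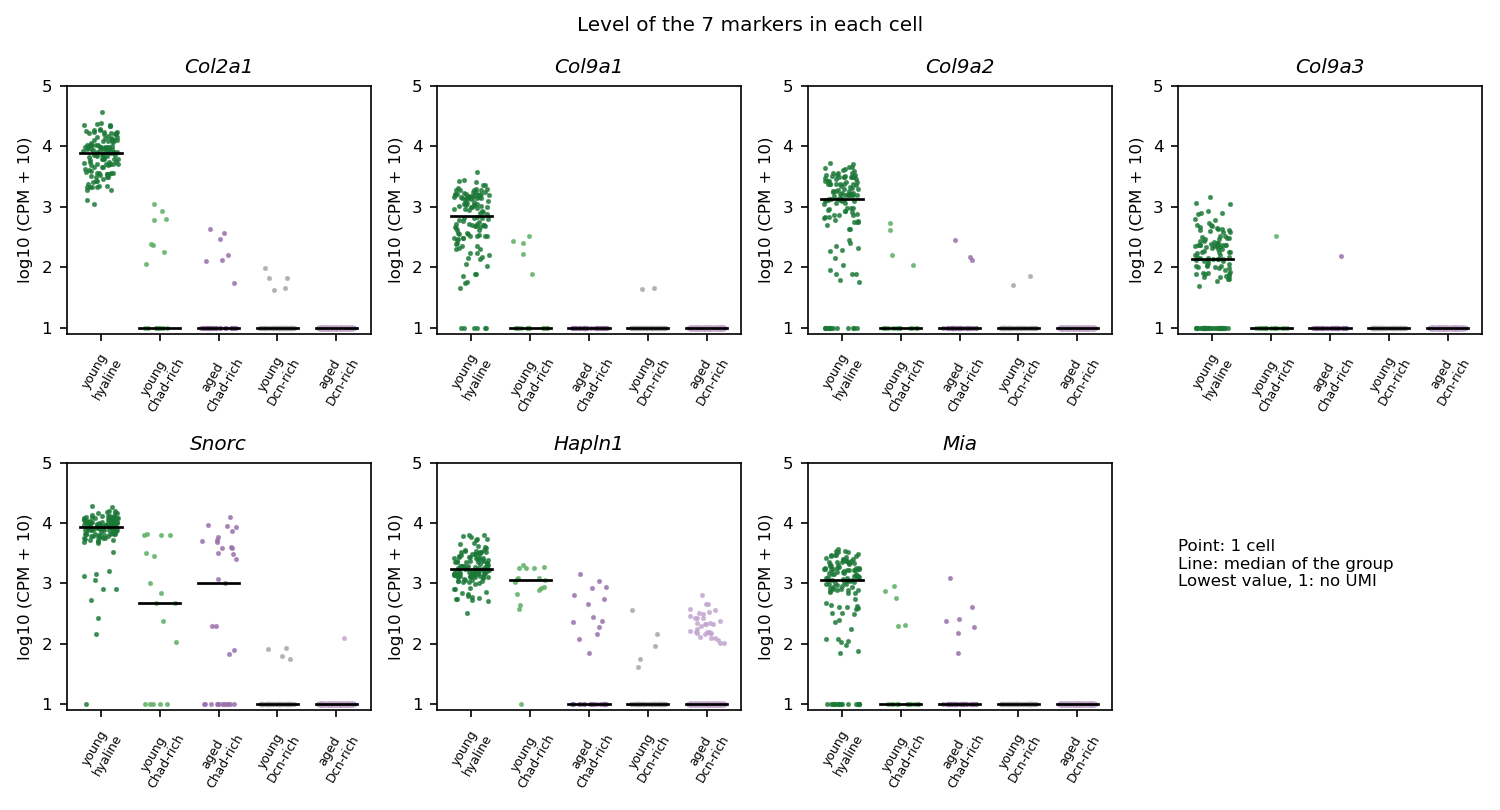
Level of the 7 markers in each stromal cell as log10 of CPM plus 10, by group and library; lines are medians and the lowest value, 1, is a cell without a UMI. The hyaline cells stand above the other groups for Col9a1, Col9a2, Col9a3 and Mia in most cells, while Hapln1 and Snorc overlap with Chad-rich cells.

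The comparison was then opened to all genes with at least 20 summed UMIs. A gene was counted as higher or lower when its CPM ratio was at least 2-fold, a rule of size and not a test. Against the 88 other young stromal cells, 9.62% of 8003 genes were higher in hyaline cells and 14.8% were lower, with a median log2 ratio over all genes of −0.15. Against the 17 Chad-rich cells, 17% of 6486 genes were higher and 6.21% lower, with a median of 0.18. Against the 71 Dcn-rich cells, 10.8% of 7886 genes were higher and 16.6% lower, with a median of −0.19. These splits moved with the scaling, and the excess of lower genes against all others narrowed. TMM factors shifted the log2 ratios by 0.14, −0.16 and 0.19 in these 3 comparisons, and median-of-ratios factors by 0.15, −0.19 and 0.19. The comparison with all 88 other cells went from 770 higher and 1186 lower genes to 938 and 981 under either set of factors. Under TMM the Chad-rich comparison went from 1100 higher and 403 lower genes to 863 and 557, and under median-of-ratios factors to 839 and 567. The Dcn-rich comparison went from 848 higher and 1306 lower to 1065 and 1033 under TMM, and to 1067 and 1032.

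Of the 6 cartilage collagen genes beside Col2a1, all were at least 2-fold higher than in the other stromal cells, against the 9.62% of all genes, with a median log2 ratio of 5.72. Against Chad-rich cells 5 of the 6 were higher, where 17% of all genes were, with a median of 3.02. Beside the type IX genes, Col11a1 stood at 2943 CPM in hyaline cells and 236 CPM in the other cells (log2 ratio 3.64), and Col11a2 at 1365 and 86.0 CPM (3.99). Both encode chains of type XI collagen, the core of the fibril, and both were found in all 126 cells. Against Chad-rich cells Col11a1 was closer, at 1306 CPM there (1.17, interval 1.00 to 1.35), than Col11a2, at 251 CPM (2.44, 2.06 to 2.85). Col27a1, a fibrillar collagen of cartilage, was sparse, with 24.3 CPM in 36 cells. It had 1 UMI in the other cells, a log2 ratio of 5.21 with an interval of 2.66 to 10.54.

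Of 16 measured members of the aggrecan network and its companions, Chad left out, 12 were higher and 1 lower than in the other stromal cells, where 9.62% and 14.8% of all genes were, with a median of 2.53. Acan, the aggrecan core protein, stood at 614 CPM (cells 0, 526 and 3113) against 55.1 CPM, a log2 ratio of 3.48, and against 352 CPM in Chad-rich cells (0.80, 0.47 to 1.16). Matn1 and Matn3, matrilins that link cartilage fibrils, had 50 and 55 UMIs in 15 and 33 hyaline cells and 0 UMIs in all 88 other young cells. Set against a floor of 3 UMIs over the group, they were at least 12.8-fold and 14.1-fold higher. Comp, a pentameric protein that binds collagen, was highest in Chad-rich cells. It stood at 7662 CPM in hyaline cells, 25325 CPM in Chad-rich cells and 1753 CPM in Dcn-rich cells, so that its log2 ratio was 0.58 over all other cells but −1.72 over Chad-rich cells. Prelp, a leucine-rich repeat protein that anchors collagen, had 1030, 4034 and 708 CPM in these groups, and Cilp2, a cartilage intermediate layer protein, 1962, 5285 and 48.3 CPM. Of the 15 members measured against Chad-rich cells, Chad again left out, 4 were higher and 4 lower, where 17% and 6.21% of all genes were. Vcan, versican, the large proteoglycan of fibrous tissue, was the 1 lower member against all other cells, at 60.2 against 342 CPM.

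Of 21 measured secreted and membrane proteins of chondrocytes, 17 were higher and 3 lower than in the other stromal cells, where 9.62% and 14.8% of all genes were (median 2.62). Of the 18 measured against Chad-rich cells, 7 were higher, 1 lower and 10 within 2-fold, where 17% and 6.21% of all genes were higher and lower (median 0.42). Ucma, a matrix protein with many Gla residues, stood at 4771 CPM (cells 0, 4445 and 14824), found in 125 of 126 cells, against 1343 CPM in Chad-rich and 21.5 CPM in Dcn-rich cells. Cnmd, chondromodulin, an inhibitor of vessel growth, was found in 57 hyaline cells at 175 CPM and in none of the 88 other young cells, at least 89.1-fold higher. Clec3a, a cartilage lectin, did not separate hyaline from Chad-rich cells, at 2942 and 3093 CPM (−0.07, −0.19 to 0.04), and Scrg1, a secreted protein of differentiating chondrocytes, stood at 1722 and 2412 CPM. Mgp, an inhibitor of calcification, stood at 17421 CPM against 14458 CPM in Chad-rich and 1964 CPM in Dcn-rich cells. Between hyaline and Chad-rich cells, Clec3a, Scrg1 and Mgp were within 2-fold, and Ucma and Cnmd beyond it.

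Of 19 measured regulators of chondrocytes, 14 were higher and 1 lower than in the other stromal cells, where 9.62% and 14.8% of all genes were, with a median of 1.42. Against Chad-rich cells 8 of 19 were higher and 1 lower, where 17% and 6.21% of all genes were, with a median of 0.81. Sox9 stood at 520 CPM (cells 0, 391 and 3885) in 121 of 126 cells, against 297 CPM in Chad-rich and 42.9 CPM in Dcn-rich cells. Its log2 ratio was 2.71 (2.44 to 2.99) over all other cells and 0.81 (0.45 to 1.19) over Chad-rich cells. Its partners Sox5 and Sox6 stood at 67.8 and 46.0 CPM, against 77.7 and 32.0 CPM in Chad-rich cells, with intervals that included no difference. Erg, a transcription factor of articular cartilage, stood at 70.3 against 45.7 CPM in Chad-rich cells (0.62, −0.30 to 1.71). Dlx5, a homeobox factor of cartilage and bone, stood at 77.9 CPM against 13.7 CPM, from 3 UMIs in Chad-rich cells (2.51, 0.93 to 4.80). Scx, scleraxis, which drives tendon genes, was the lower member, at 14.7 CPM against 192 CPM in Chad-rich cells (−3.71, −4.44 to −2.99).

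**Figure D3:**
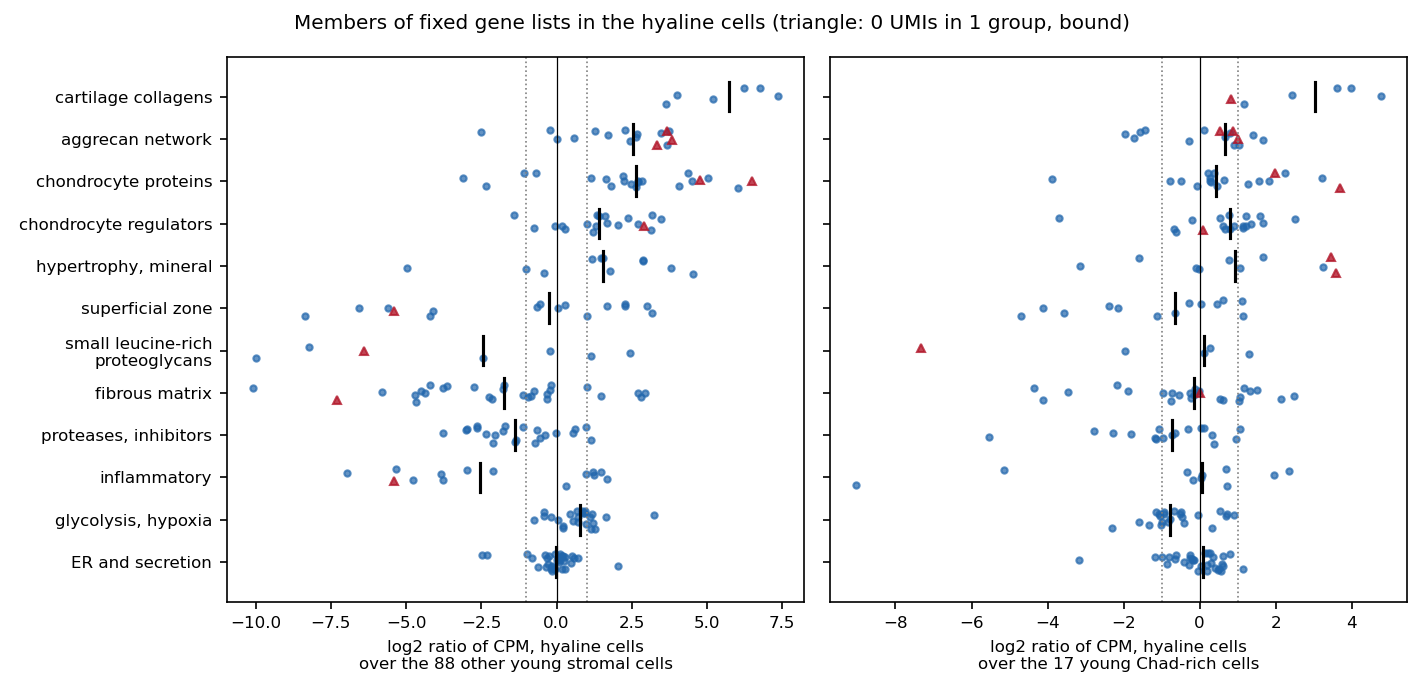
Log2 ratio of CPM of each measured member of 12 gene lists, in hyaline cells over all 88 other young stromal cells (left) and over the 17 Chad-rich cells (right). Points are genes, triangles are bounds for genes with 0 UMIs in one group, short black lines are list medians and dotted lines mark 2-fold; Col2a1, Chad and Dcn, which chose the cells, are left out. Cartilage collagens have the highest median of the 12 lists in both panels, 5.72 and 3.02, while glycolysis genes have a median of 0.78 on the left and −0.77 on the right.

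Genes of the mineralising, hypertrophic growth plate chondrocyte were present in part. Of 11 measured, 8 were higher and 2 lower than in the other stromal cells, where 9.62% and 14.8% of all genes were, with a median of 1.55. Against Chad-rich cells 5 of 10 were higher and 2 lower, where 17% and 6.21% of all genes were. Col10a1, the collagen that defines hypertrophic chondrocytes, had 0 UMIs in the hyaline cells, as did the osteoblast genes Sp7 and Dmp1. For each, 0 of 126 cells allows a share of up to 2.38% of cells with a UMI. Col10a1 and Sp7 were also at 0 in the Chad-rich and Dcn-rich cells of both libraries, so their absence did not set the hyaline cells apart. Ihh and Mmp13 had 3 UMIs each. Phospho1, a phosphatase that frees phosphate for mineral, stood at 166 CPM against 7.22 CPM in the other cells (log2 ratio 4.52), Alpl, alkaline phosphatase, at 150 against 20.3 CPM (2.88) and Ibsp, bone sialoprotein, at 862 against 62.3 CPM (3.79). All 3 were uneven. They were found in 35, 35 and 56 of the 126 cells, and 1 cell held 47.2% of all Ibsp UMIs. Spp1, osteopontin, stood at 574 CPM against 1161 CPM, with 35.3% of its hyaline UMIs in 1 cell, a log2 ratio of −1.02 that became 0.79 when cells with at least 5 Col2a1 UMIs were chosen. Phex, an endopeptidase of bone cells, was lower, at 1.01 against 31.5 CPM.

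Of the 7 measured Hedgehog and parathyroid hormone-related genes, 3 were higher than in all other cells and 1, the co-receptor Boc, was lower (−1.28), where 9.62% and 14.8% of all genes were. Against Chad-rich cells 2 of the 7, Ptch1 and Pth1r, were higher and 0 lower, where 17% and 6.21% of all genes were. Ptch1, the Hedgehog receptor that is also a target of the pathway, stood at 180 CPM (cells 0, 68.3 and 1502) in 81 cells, against 13.7 CPM in Chad-rich and 9.20 CPM in Dcn-rich cells. Its log2 ratio over Chad-rich cells was 3.72, with an interval of 2.16 to 6.00 since these held 3 UMIs. Gli1, another target, had 15.7 CPM in 25 cells against 3.07 CPM in Dcn-rich cells. Chad-rich cells had 0 UMIs of it, but with a floor of 3 UMIs over their 17 cells Gli1 was only at least 1.14-fold higher, so a difference from them was not detectable at this depth. Pth1r, the receptor for parathyroid hormone-related protein, stood at 102 CPM against 34.8 CPM in the other cells (1.55).

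Among growth factors, receptors and their antagonists, 11 of 33 were higher and 8 lower than in the other stromal cells, where 9.62% and 14.8% of all genes were. Wif1, a secreted WNT antagonist, was found in every hyaline cell (cells 67.6, 2400 and 7341 CPM), at 2484 CPM in sum against 2069 CPM in Chad-rich and 30.7 CPM in Dcn-rich cells. Frzb, another WNT antagonist, was lower than in Chad-rich cells, at 769 against 1900 CPM. Igf2, an insulin-like growth factor, stood at 95.1 CPM in 55 cells, and the WNT antagonist Sfrp5 at 82.4 CPM in 45 cells. Each had 2 UMIs among the 88 other cells, with log2 ratios of 6.18 (4.31 to 9.23) and 5.97 (4.10 to 9.03). Igfbp4, an insulin-like growth factor binding protein, was the reverse, with 4 UMIs, 2.02 CPM, in the hyaline cells and 367 CPM in the others.

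Of 28 measured fibrous matrix genes, 16 were lower and 5 higher than in the other stromal cells, where 14.8% and 9.62% of all genes were, with a median of −1.76. Of these 88 cells, 71 were Dcn-rich. Against Chad-rich cells alone, 5 of 24 were lower and 7 higher, where 6.21% and 17% of all genes were, with 12 within 2-fold and a median of −0.14. Col1a1, a chain of type I collagen, stood at 2351 CPM in hyaline cells, 25769 in Chad-rich and 52980 CPM in Dcn-rich cells, and 76 of the 126 cells had no UMI of it. Col3a1, type III collagen, stood at 1696, 6245 and 44319 CPM. Postn, periostin, had 4 UMIs against 2191 CPM in the other cells (log2 ratio −10.08, −11.96 to −8.72), and Lum, lumican, 3 UMIs against 1552 CPM (−10.00, −12.28 to −8.45). Dcn, which chose the other cells, was at 158 against 7860 CPM. Sparc, a collagen chaperone and matrix glycoprotein, went the other way at 56374 CPM (cells 21554, 56042 and 108285) against 27679 CPM, as did Bgn, biglycan, at 6326 against 2896 CPM. All 6 fibroblast markers were lower than in the other stromal cells, where 14.8% of all genes were, with a median of −5.14, and Clec3b had 0 UMIs in hyaline cells. Of the 4 measured against Chad-rich cells, 1 was lower and 1 higher, where 6.21% and 17% of all genes were. The other 2 were within 2-fold, and the median was −0.02.

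Of 22 matrix proteases and their inhibitors, 13 were lower and 1 higher than in the other stromal cells, where 14.8% and 9.62% of all genes were (median −1.37). Against Chad-rich cells 7 of 17 were lower and 1 higher, where 6.21% and 17% of all genes were. Timp2, an inhibitor of metalloproteases, stood at 541 CPM against 2758 CPM in the other cells and 2631 CPM in Chad-rich cells. Mmp3, stromelysin, stood at 45.5 against 619 CPM, and Ctsl, cathepsin L, at 411 against 1775 CPM. Ccl2, a monocyte attractant, had 7.59 CPM in 6 cells against 953 CPM. In the Chad-rich group of 17 cells, the top cell was taken gene by gene. It held 77.1% of the Ccl2, 77.2% of the Mmp3 and 85.9% of the Crip1 UMIs. For Thbs4 and Dcn it held 71.9% and 50.8%. The ratios of these genes over Chad-rich cells rest largely on such top cells. Whether 1 cell was on top for all of them was not examined. Col1a1 was spread more widely there, with 24.6% in 1 cell.

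Of 24 genes of glycolysis and hypoxia, 7 were higher and 0 lower than in all other cells, where 9.62% and 14.8% of all genes were. Against Chad-rich cells 0 of 23 were higher and 7 lower, where 17% and 6.21% of all genes were. Pgk1, a glycolytic kinase, stood at 514, 1055 and 188 CPM in hyaline, Chad-rich and Dcn-rich cells, and Ldha, lactate dehydrogenase, at 816 CPM in hyaline and 1613 CPM in Chad-rich cells. Immediate early genes, which respond within minutes to stimuli including tissue digestion, were higher in 11 and lower in 1 of 27 against all others, where 9.62% and 14.8% of all genes were. Against Chad-rich cells 2 of 27 were higher and 1 lower, below the 17% and 6.21% of all genes. Fos stood at 5208, 5153 and 2086 CPM. Genes of the endoplasmic reticulum and secretion were mostly within 2-fold of all other cells, with a median of −0.02. Of 34, 1 was higher and 2 lower, where 9.62% and 14.8% of all genes were.

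The largest ratios over the other young stromal cells included genes outside the classic cartilage set. Mug1, a murinoglobulin protease inhibitor, stood at 230 CPM in 73 cells, from 1 UMI in the 88 others (log2 ratio 8.45, 5.97 to 13.76). Ccn6, a matricellular protein, stood at 86.0 CPM in 74 cells (7.03, 4.54 to 12.35) and Cmtm5, a membrane protein, at 56.6 CPM in 63 cells (6.43, 3.92 to 11.75), also from 1 UMI each. Enho, which encodes a secreted peptide, stood at 215 CPM in 97 cells, against 13.7 CPM in Chad-rich cells (3.97, 2.42 to 6.26). Others rested on few cells. Tnni2, fast muscle troponin I, had 829 CPM in 36 cells, 27.8% of it in 1 cell, and Gfap, an intermediate filament of astrocytes, had 55.6 CPM in 24 cells. At the other end, Bglap, osteocalcin, had 9 UMIs in hyaline cells against 7479 CPM in the others (−10.68), where 9 cells carried it and 1 held 55.8%. Sfrp2 and Aspn, genes of fibroblasts, had 1 and 3 UMIs against 568 and 459 CPM.

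RNA of other cell types was present in some of the barcodes. At least 3 of 5 leukocyte genes (Ptprc, Cd52, Coro1a, Laptm5 and Rac2) were found in 17 of the 126, and a Ptprc UMI in 14, while the other stromal cells were chosen without Ptprc and 6 of 88 had 3 such genes. The 5 genes made up 0.0646% of UMIs in the 17 barcodes (cells 0.0218 to 0.216%) and 0.00481% in the remaining 109 (cells 0 to 0.0229%). Cd52 was at 0 in the whole group. S100a8, a neutrophil granule gene, stood at 3189 CPM in the 17 and 192 CPM in the 109. The 6 markers other than Col2a1 made up 1.27% of UMIs in the 17 barcodes and 1.53% in the 109. No doublet caller was run. Ccl3 and Tyrobp, which ranked among the genes highest over Chad-rich cells at 4.26 and 3.97, stood at 0.69 and 1.24 without the leukocyte-gene barcodes of either group. All 6 measured neutrophil genes were higher than in Chad-rich cells (median 2.37), where 17% of all genes were. The median was −0.36 without these barcodes. Without them the 6 markers other than Col2a1 stood at log2 ratios of 3.66 to 7.85 over all other cells, with a median of 6.20. Counts of genes at least 2-fold apart included RNA of these barcodes. Without them 658 genes were higher and 1266 lower than in all other cells, against 770 and 1186 with them. The counts were 959 and 387 over Chad-rich cells, against 1100 and 403. Over Dcn-rich cells they were 743 and 1359, against 848 and 1306. Among the 109 barcodes, 60 held 1 or 2 of the 5 leukocyte genes and 49 held none.

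The cells were not uniform. Correlations between genes, given as descriptions over cells of 1 library thinned to 2000 UMIs each, were weak to moderate. Of 210 genes found in at least 50% of the thinned cells, those most like Col2a1 by Spearman correlation over the 126 cells were Sparc (0.66), Mia (0.49), Col9a2 (0.43), Col9a1 (0.42), Bgn (0.40), Plac9 (0.35), Col11a1 (0.34), Col16a1 (0.31), the collagen prolyl hydroxylase P4ha1 (0.30) and Ssr4 of the translocon (0.28). The lowest were Naca (−0.35), Gsn (−0.34) and Myoc (−0.32), which were chosen after their values were seen. Since all levels are parts of 2000 UMIs, a high share of one gene lowers the others.

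One division lay between lubricin and mineral genes. Prg4, which encodes lubricin, the boundary lubricant of joint surfaces, was found in 115 of 126 cells (cells 0, 6822 and 59935 CPM), and summed to 10649 CPM against 4888 in Chad-rich and 733 CPM in Dcn-rich cells. The list of 17 joint surface genes that holds Prg4 made up 1.54% of UMIs in hyaline and 1.64% in Chad-rich cells. Of 13 measured against Chad-rich cells, 2 were higher and 6 lower, where 17% and 6.21% of all genes were. Of 16 measured against all other cells, 6 were higher and 6 lower, where 9.62% and 14.8% of all genes were. Across cells the Spearman correlation of Prg4 was −0.51 with Ibsp and −0.58 with the sum of Ibsp, Alpl and Phospho1, and −0.61 with that sum in the 109 cells with fewer than 3 leukocyte genes. Cells with at least 10 UMIs of the 3 mineral genes, a range set after the data were seen, numbered 28, of which 22 held fewer than 3 leukocyte genes, 16 of them 1 or 2. The measure was graded: 62 cells had 0 such UMIs, 25 had 1 to 4, 11 had 5 to 9, 7 had 10 to 14, 1 had 15 to 19 and 20 had more. So 11 cells lay just below the threshold and 7 just above it.

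**Figure D4:**
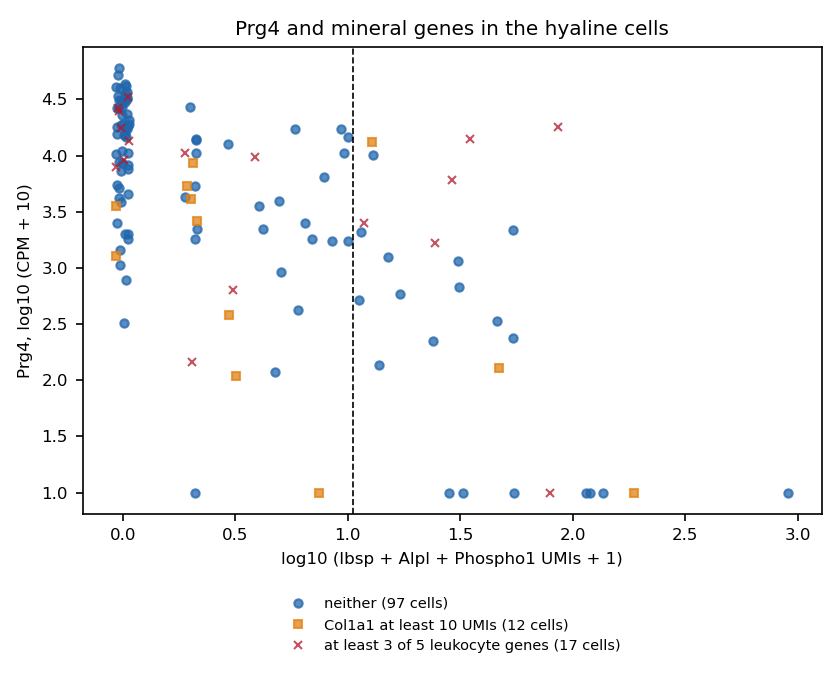
Prg4 level of each of the 126 hyaline cells (log10 of CPM plus 10) against its UMIs of Ibsp, Alpl and Phospho1 (log10 of the sum plus 1). The dashed line marks 10 UMIs; colours show barcodes with at least 3 of 5 leukocyte genes and cells with at least 10 Col1a1 UMIs. High Prg4 is found mostly left of the line, and 9 of the 11 cells without a Prg4 UMI stand right of it.

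In the 22 mineral gene-rich cells Prg4 stood at 1284 CPM, with a median cell of 222 CPM, and in the other 87 cells at 13490 CPM, with a median cell of 10237 CPM. It was found in 63.6% of the former and 97.7% of the latter, at median depths of 16284 and 14776 UMIs. Of the 22 cells, 2 lay above the median Prg4 level of all 109, 5375 CPM, and of the 87 cells 52 did. The log2 ratio was −3.39, and −3.35 without the cell that held 805 of the 1705 Ibsp UMIs. Of the joint surface list, Cilp stood at 140 against 1349 CPM (−3.27), with median cells of 0 and 867 CPM. Clu, clusterin, stood at 71.0 against 1329 CPM (−4.23), but its median cells were closer, at 44.8 and 192 CPM. Cells with at least 10 Col1a1 UMIs held 988 of the Clu UMIs in the 109 cells, and the remaining cells 726. The 17 surface genes together made up 0.405% of UMIs in mineral gene-rich cells and 1.91% in the others. Prg4, Cilp and Clu held 506, 55 and 28 of these 1597 UMIs in mineral gene-rich cells. In the others they held 17117, 1712 and 1686 of 24216, so the difference in the sum rests mostly on these genes and not on the whole list.

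The genes named next were chosen after their values were seen. Pth1r stood at 266 CPM in mineral gene-rich and 48.9 CPM in the other cells (log2 ratio 2.45, 1.98 to 2.92) and was found in 90.9% and 44.8% of them. Mef2c, a transcription factor of chondrocyte hypertrophy, stood at 256 against 48.1 CPM (2.41), or 1.72 without its top cell in each group. Smpd3, a sphingomyelinase that mineralisation of the mouse skeleton requires, stood at 332 against 37.0 CPM (3.17) and was found in 81.8% and 28.7%. PCOLCE2, an enhancer of procollagen cleavage, stood at 525 against 27.6 CPM (4.25). Ptch1 stood at 401 against 117 CPM (1.78), and Tnni2, found in 45.5% and 24.1%, at 2740 against 97.7 CPM (4.81). Igfbp5, an insulin-like growth factor binding protein, was lower, at 147 against 1532 CPM (−3.38). The markers differed less than Prg4. Col2a1 stood at 12530 against 8749 CPM (0.52), Mia at 1809 against 1187 CPM (0.61) and Snorc at 10155 against 8704 CPM (0.22), and Comp differed by −0.36. The 7 markers made up 3.06% of UMIs in mineral gene-rich and 2.32% in the other cells. Erythroid genes stood at 0.469% against 0.0198% of UMIs, and 1 cell, the deepest of the 126 with 43012 UMIs, held 1778 of the 1847 erythroid UMIs of the 22. These were 4.13% of its own UMIs, and it held 1 of the leukocyte genes. Without this cell the other 21 stood at 0.0196%, and the log2 ratio was −3.27 for Prg4, −4.22 for Clu, 2.56 for Pth1r and 0.62 for Col2a1.

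**Figure D5:**
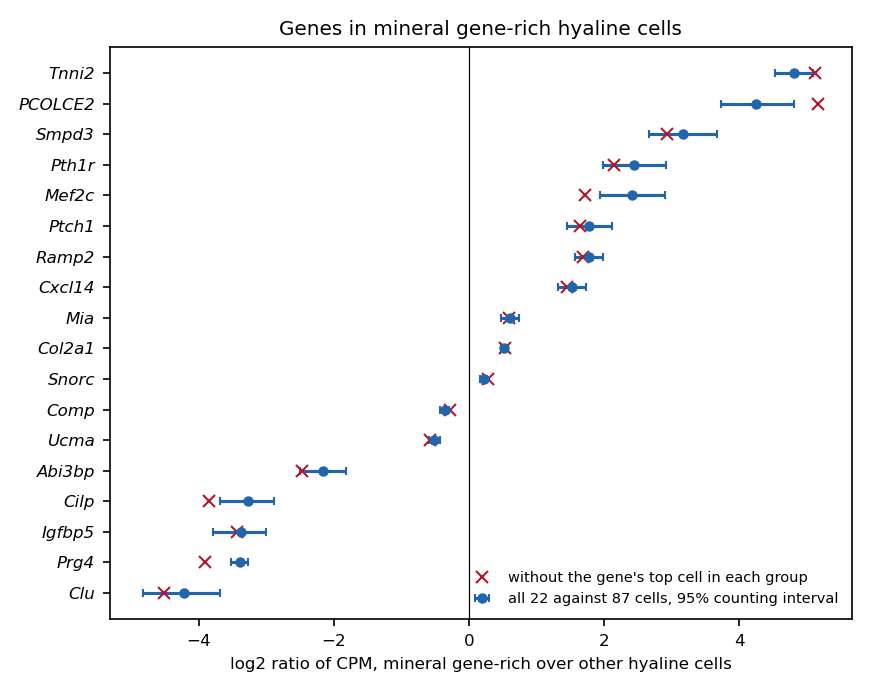
Log2 ratio of CPM of 18 genes in the 22 mineral gene-rich over the 87 other hyaline cells, all with fewer than 3 leukocyte genes. Circles with bars are ratios with 95% counting intervals, and crosses leave out the gene's top cell in each group. Prg4, Clu, Igfbp5, Cilp and Abi3bp stand below −2 and the 3 markers Col2a1, Mia and Snorc stay between 0.22 and 0.61.

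A second division followed Col1a1. While 76 cells had no Col1a1 UMI and 32 had 1 to 4, 15 had at least 20, 3 had 5 to 9 and none fell between. Of the 15, 12 held fewer than 3 leukocyte genes, 10 of them 1 or 2, and 3 of the 12 were also mineral gene-rich. This split and the genes below were chosen after the data were seen. In the 12 cells Col1a1 stood at 18155 CPM, against 38.4 CPM in the other 97. Chad stood at 15565 against 3371 CPM (log2 ratio 2.21), and Dcn at 1021 against 68.6 CPM (3.90). In Chad-rich cells, which Chad itself chose, it stood at 15280 CPM. Clu stood at 5576 against 489 CPM (3.51), Thbs2, a thrombospondin, at 1134 against 108 CPM (3.40) and Lox, which crosslinks collagen, at 1100 against 154 CPM (2.84). Frzb stood at 3014 against 529 CPM (2.51). Spp1 stood at 5762 against 22.2 CPM, with UMIs in 6 of the 12 cells. Col9a2 was lower, at 288 against 1806 CPM (−2.65), and was found in 6 of the 12 cells against 93.8% of the others, and Cnmd had 0 UMIs in the 12 cells and was found in 49.5% of the others. The 7 markers made up 1.75% of UMIs in Col1a1-rich cells and 2.58% in the others. The remaining 78 cells were below all 3 thresholds, for mineral genes, Col1a1 and leukocyte genes.

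Unsupervised Leiden clustering of the 126 cells gave 7 subclusters of 29, 24, 22, 20, 12, 10 and 9 cells, which stayed unnamed. Of the 28 mineral gene-rich cells, 18 were in the subcluster of 24. All 12 cells of another held at least 3 leukocyte genes, and 9 of the 15 Col1a1-rich cells were in the subcluster of 10. The clusters rest on the same counts as the splits and are no separate evidence for them.

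The aged library offered no hyaline cell to compare, so the nearest group, Chad-rich cells, is given side by side with 33 aged and 17 young cells. Both were chosen by Chad, and their medians were 6800 and 12283 UMIs. Snorc had 2633 CPM in the aged Chad-rich cells, 1841 in the young ones and 8751 in hyaline cells. Ucma stood at 2752 and 1343 CPM, and Sox9 at 410 and 297 CPM. Other genes were lower in the aged cells: Hapln1 at 207 against 1119 CPM, Acan at 126 against 352 CPM and Col11a1 at 199 against 1306 CPM. Col2a1, capped by the rule that chose these cells, stood at 38.3 against 187 CPM. Young cells with 6, 8, 9 and 9 Col2a1 UMIs, just under the threshold, held most of the 41 UMIs behind the young value. The same cells held, in this order, 64, 60, 23 and 46 of the 403 Snorc UMIs of young Chad-rich cells. Col9a1 had 0 UMIs in aged Chad-rich cells, and Cnmd had 9 UMIs there, 34.4 CPM, in 1 cell. Prg4 had 20223 CPM in the aged Chad-rich cells, 4888 in the young ones and 10649 in hyaline cells. Each value is 1 library, and these differences were not tested.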

How the data were processed

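Per the labels' protocols, cells were processed with a 10x Genomics single-cell 3' v3 kit. For 25399 genes in each library, raw UMI counts were deposited as whole numbers, without normalisation. The submitters' processing notes name Cell Ranger 6.1.1; the genome build is not given in the sources used here. Gene names were taken from the files, and RefSeq promoters from build GRCr8.

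Barcodes with 500 or more genes and no more than 20% mitochondrial UMIs were kept, and groups were set by raw counts as described. No doublet caller was run. Kept cells held 61784536 young and 43170013 aged UMIs. Counts were summed per group and compared as log2 ratios of CPM with exact conditional binomial 95% intervals; shares have Clopper-Pearson intervals, and 0 counts a limit of 3 counts. No test, p-value or standard error was computed. The ratio script was tested on simulated data. Correlations used cells thinned to 2000 UMIs (seed 1).

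The cells, gene lists and rules were chosen with earlier results of these data known. Named genes were the 7 markers, the 15 largest and smallest ratios against all other young stromal cells and the 8 against each of the 2 groups, with at least 50 CPM in the higher group and 100 summed UMIs. Of each list, the 4 most abundant members and the largest and smallest ratio could be named, and in the lists of collagens, aggrecan network, chondrocyte proteins, regulators, hypertrophy and Hedgehog genes any member. Genes that tell subgroups apart were chosen after their values were seen.

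Alternatives covered the filters, the Col2a1 threshold, scaling by TMM (edgeR 4.0.16) and median of ratios (DESeq2 1.42.0), thinning, count minimums, deep cells and leukocyte genes. Software was R 4.3.3 and Python 3.11.15 with scanpy 1.11.5, leidenalg 0.10.2, scipy 1.17.1, numpy 2.4.6, matplotlib 3.10.9 and pandas 2.3.3.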

Additional observations from a re-analysis of the deposited data

How the results depend on the processing

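The number of hyaline cells in the young library was 112 to 133 under the other filters and Col2a1 thresholds tried, and 0 in the aged library under each. Counts of genes at least 2-fold apart followed the number of UMIs. With every cell thinned to 2000 UMIs, 249 genes were higher and 417 lower than in the other young stromal cells, 274 and 128 against Chad-rich and 302 and 437 against Dcn-rich cells. With no minimum of summed UMIs the counts were 1400 and 1834 against all others, 1406 and 2028 against Dcn-rich cells and 887 lower genes against Chad-rich cells. With at least 100 summed UMIs they were 282 and 473, 254 and 112, and 327 and 508, since fewer genes were compared. Changes of direction were counted only for genes at least 2-fold apart in the main setting. Of 1815 alternative values of single genes, including genes less than 2-fold apart, 3 changed direction in this sense. They were Spp1 against all others (0.79, with at least 5 Col2a1 UMIs), Tyrobp against all others (−1.41, without members with a Ptprc UMI) and Mmp3 against Chad-rich cells (1.61, without the deepest 10% of cells, which held 1 cell with most of its UMIs). Without members with a Ptprc UMI, the medians of B-lineage genes were −0.37 against all others and −0.051 against Dcn-rich cells, and that of neutrophil genes against Chad-rich cells −0.36; it was also −0.36 without leukocyte-gene barcodes. The cause of these changes was not tested. Another 372 single values left the counting interval without a change of direction in a gene 2-fold apart. The share of cells with a UMI was 29.4% for Ibsp, 82.5% for Prg4 and 17.5% for Col1a1 after thinning, against 44.4%, 91.3% and 39.7%. The 7 markers made up 0.4% of thinned UMIs of young Chad-rich cells. At a clustering resolution of 0.5 there were 3 subclusters. The alternatives on leukocyte genes, on the barcode with erythroid RNA and on single top cells were chosen after seeing the data. No paired analysis was possible because each age has 1 library and no test was made.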
